A study of Mus musculus with 26 samples.

Results

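Among the transcripts measured by ribosome profiling in the mouse caudate putamen, 237 of 8576 (2.76%) had a higher translational efficiency (TE) in mice with G2019S LRRK2 and a lower TE in mice with the kinase-dead G2019S/D1994A LRRK2, each set against control mice. They were selected on these values alone. TE is the log2 of the authors' mean for ribosome footprints over their mean for RNA-Seq of the same transcript, and a TE difference is the genotype's TE minus that of its control. Members had to reach a TE difference of at least 0.4 in GS LRRK2 TG and at most -0.35 in GS/DA LRRK2 TG. The first criterion was met by 567 transcripts (6.61%) and the second by 574 (6.69%). The tables list 330 further transcripts that met the first alone, 337 that met the second alone and 4 that met the mirrored rule. Both comparisons are set against the non-TG control. They share at least part of its libraries, given the labels and the number of libraries per comparison that the paper states. Neither the number of members nor the opposed signs therefore say anything about LRRK2 by themselves, and no test was made on them.

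Footprints and total RNA came from pooled tissue of 3-month-old C57BL/6 mice, 3 mice of mixed sex per pool. GS LRRK2 TG mice carried a G2019S LRRK2 transgene and GS/DA LRRK2 TG mice a G2019S/D1994A LRRK2 transgene, with 2 libraries per assay each, and non-TG control mice had 3 libraries per assay. LRRK2 KO mice, which lack the gene, and their WT controls had 2 RNA-Seq libraries and 3 footprinting libraries of the striatum each. The deposited LRRK2 KO table has 2 libraries per group and assay, and the ventral midbrain libraries were not used here. The transgenes were Tet-off constructs switched on by CaMKII-tTA, a driver of forebrain excitatory and striatal neurons, after doxycycline chow was withdrawn at weaning, and each transgenic genotype came from 1 high copy number line.

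LRRK2 is a large protein with kinase and GTPase domains whose G2019S form raises kinase activity and is a frequent inherited cause of Parkinson's disease, while D1994A removes that activity. TE rises when more ribosomes sit on an unchanged amount of mRNA, and it rises just as much when less mRNA is counted under an unchanged number of ribosomes. The members include splicing factors, nucleolar proteins, initiation factor subunits and anchors of signaling enzymes or microtubules.

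Single libraries were recovered from the authors' group means for 10 of 12 columns, and the library of a pair with fewer reads is called A and the other B. The control columns that belong to GS LRRK2 TG could not be resolved in either assay, so control values in that comparison are means only. How many libraries these columns average could not be read from their values, so the number stated in the paper was not checked on them. The control columns set against GS/DA LRRK2 TG resolved into 2 libraries where the labels list 3. Which control libraries the comparisons share is unknown. Reads in coding sequences ran from 7448877 to 18605871 per recovered footprinting library of the transgenic tables and from 8695958 to 14413631 per RNA-Seq library. They ran from 2864841 to 6040906 for footprinting and from 3126206 to 10815373 for RNA-Seq in the LRRK2 KO table. The RNA-Seq libraries of all 3 resolved pairs of the transgenic tables stood apart from their partners at the members. Ratios between single libraries were taken with 10 added to each normalized value. The members' median log2 ratio of library B over A for RNA-Seq was 2.25 in GS LRRK2 TG, 1.66 in the non-TG control and -2.70 in GS/DA LRRK2 TG. For footprinting, these medians were -0.09, 0.12 and 0.18, with members on both sides of 0. Members at least 2-fold apart between the RNA-Seq libraries of a pair made up 94.4%, 86.8% and 97.4% in these groups, against 55.3%, 48.5% and 56.0% of all transcripts. Of 232 members with every RNA-Seq library resolved, 230 (99.1%) were higher in GS LRRK2 TG B, non-TG control B and GS/DA LRRK2 TG A than in the partner libraries, against 45.7% of all transcripts. A group mean of RNA-Seq for a member is therefore set mainly by 1 of its libraries. Lrrk2, not a member, had RNA-Seq values of 214 and 3550 in GS LRRK2 TG A and B against a control mean of 2105. In the other comparison these were 560 and 5233 in control A and B, and 5038 and 404 in GS/DA LRRK2 TG. Its footprints were 7052 and 3320 (control mean 2524), 1224 and 1445, and 4766 and 7267 in the same order.

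In GS LRRK2 TG, the members' TE differences ran from 0.40 to 1.23 with a median of 0.54. Their median footprinting change was 0.08 and their median RNA-Seq change -0.48, both as log2 of genotype over control, where all transcripts had medians of 0.00 and -0.02. For most members, the lower RNA-Seq mean was the larger part of the TE difference in this comparison. In GS/DA LRRK2 TG, the TE differences ran from -1.01 to -0.35 with a median of -0.50, from a median footprinting change of -0.08 and a median RNA-Seq change of 0.44. That footprinting median was 0.02 without GS/DA LRRK2 TG footprinting library A and -0.18 without B. All transcripts had median changes of -0.01 and 0.06 there. RNA-Seq means fell for 236 of the 237 members in GS LRRK2 TG (55.7% of all transcripts) and rose for 236 in GS/DA LRRK2 TG (64.7%). Less RNA per cell and fewer cells of the type that holds it cannot be told apart in bulk tissue.

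The RNA-Seq change was larger in size than the footprinting change for 219 members in GS LRRK2 TG, for 222 in GS/DA LRRK2 TG and for 204 in both, against 60.7%, 59.8% and 37.4% of all transcripts. A footprinting change of at least 0.3 in size was found for 14 and 12 members (3.38% and 4.13% of all transcripts), and an RNA-Seq change of that size for 209 and 193 (13.3% and 11.4%). These counts describe values on which the members were chosen. The RNA-Seq changes alone would have met both criteria for 114 members and for 144 of all transcripts, and the footprinting changes alone for 0 members. The RNA-Seq changes were thus the larger part of the TE differences for most members, and the members beyond those 114 met the rule with the footprinting changes added.

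**Figure D1:**
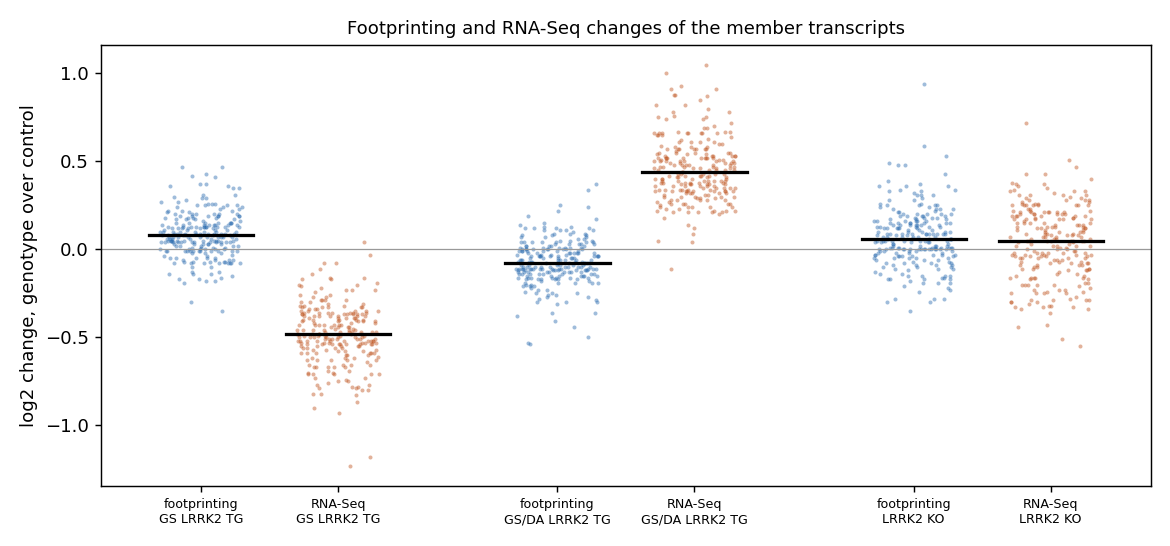
Log2 change of footprinting (blue) and of RNA-Seq (orange) for each member, 1 point per transcript, in the transgenic genotypes and in LRRK2 KO, each over its control, with black bars at the medians. Footprinting medians lie at 0.08, -0.08 and 0.06, and RNA-Seq medians at -0.48, 0.44 and 0.05.

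The direction of the RNA-Seq change depended for most members on which libraries were averaged. Against the same control mean, GS LRRK2 TG library A alone gave the members a median RNA-Seq change of -2.11, with 234 of 234 resolved members below the control (50.4% of all transcripts). Library B alone gave 0.23, with 192 above the control (47.6%), and a median TE difference of -0.20. The control mean lay between the 2 libraries of GS LRRK2 TG for those 192 members, as for 86.1% of all transcripts, and both libraries lay below it for the other 42 (8.34%). With library A left out, 5 members still met the criterion of GS LRRK2 TG, and with B left out 234 did. No share of all transcripts stands beside these 2 counts, so they are not read as a trait of the members. Between these libraries, 55.3% of all transcripts were at least 2-fold apart with 10 added to each value.

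For GS/DA LRRK2 TG, control and transgenic libraries could be matched by the difference that both pairs share, since control A resembled GS/DA LRRK2 TG B, and control B resembled GS/DA LRRK2 TG A. Between control B and GS/DA LRRK2 TG A, the members' median RNA-Seq change was 0.63, with 232 of 232 above 0, as were 56.4% of all transcripts. Between control A and GS/DA LRRK2 TG B it was -0.37, with 8 of 232 above 0 against 49.2% of all transcripts. The RNA-Seq change of the members thus had opposite directions within the matched pairs. TE differences from these pairs had medians of -0.71 and -0.67 with control B and GS/DA LRRK2 TG A for RNA-Seq, depending on the footprinting pair. They had medians of 0.26 and 0.32 with control A and GS/DA LRRK2 TG B. The criterion of at most -0.35 was met by 227 of 232 members in either of the former cases and by 3 and 1 in the latter, against 18.1%, 15.1%, 1.93% and 4.39% of all transcripts. Both RNA-Seq libraries of GS/DA LRRK2 TG lay above both control libraries for 2 of 232 members, where 1.79% of all transcripts did, and below them for 0, where 1.61% did. For footprinting, the groups did not overlap for 66 of 236 members, where 24.3% of all transcripts did not. Of these members, 8 lay above, as did 1011 of 8404 transcripts, and 58 below (12.2% of all transcripts). These counts come from the contrast that chose the members and are a description.

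Leaving out single RNA-Seq libraries changed which transcripts would be chosen. Without GS LRRK2 TG RNA-Seq library A, 31 transcripts met the rule, 5 of them members, and without B 525 did, 234 of them members. Without RNA-Seq library A of the control set against GS/DA LRRK2 TG, 49 met it (8 members), and without B 448 (233 members). Without GS/DA LRRK2 TG RNA-Seq library A, 28 met it (2 members), and without B 482 (232 members). With a footprinting library left out, between 180 and 301 transcripts met the rule. What set the RNA-Seq libraries apart was not tested.

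Akap5 led the set, with TE differences of 1.23 and -1.01. It encodes an anchor that holds protein kinase A and calcineurin at the postsynaptic membrane of striatal and other forebrain neurons, and its gene lies on chromosome 12, plus strand, from 77425878 to 77435140 (mm9). Akap5 footprints were 3646 and 5713 normalized reads in GS LRRK2 TG libraries A and B, against a control mean of 4504. In the comparison of GS/DA LRRK2 TG they were 6235 and 4755 for the control and 6224 and 5039 for the transgenic mice. Footprints thus overlapped between the groups. Akap5 RNA-Seq was 526 and 3059 in GS LRRK2 TG libraries A and B against a control mean of 4048. It was 1195 and 5823 in libraries A and B of the control set against GS/DA LRRK2 TG, whose own libraries A and B held 13540 and 971. The control libraries lay between those of GS/DA LRRK2 TG, which were 13.81-fold apart with 10 added to each value.

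Gene lists, chosen with earlier results of these data known, are given with their members among measured transcripts, where members were 2.76% of all transcripts, and with their median TE differences, which were 0.02 and -0.05 over all. Of 17 measured transcripts for A kinase anchor proteins and protein kinase A subunits, 3 were members (17.6%). Akap17b, a relative of an anchor found in splicing speckles, had TE differences of 0.42 and -0.58, and Akap9, which ties protein kinase A to the centrosome and Golgi, 0.40 and -0.40. The 17 transcripts had median TE differences of 0.15 and -0.18. The kinase itself was not among the members, since the catalytic subunits Prkaca and Prkacb had TE differences of -0.00 and 0.25 in GS LRRK2 TG and -0.09 and -0.08 in GS/DA LRRK2 TG. Among the regulatory subunits, Prkar2b, which is abundant in the striatum, came nearest in GS LRRK2 TG, at 0.38, and had -0.21 in GS/DA LRRK2 TG. Akap11, an anchor of regulatory subunits on vesicles, met the GS/DA LRRK2 TG criterion with -0.46 and missed the other with 0.29.

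Nucleolar and ribosome assembly proteins counted 11 members of 70 measured (15.7%), and their list had median TE differences of 0.22 and -0.13. Npm1, nucleophosmin, is a nucleolar chaperone of ribosome assembly, and the genome holds many processed copies of it with which its reads may be shared. Its TE differences were 0.79 and -0.80. Npm1 footprints were 3819 and 2887 in GS LRRK2 TG A and B (control mean 3265), 4026 and 4691 in control A and B of the other table, and 3609 and 4310 in GS/DA LRRK2 TG A and B. Npm1 RNA-Seq was 379 and 2158 in GS LRRK2 TG (control mean 2132), 872 and 3490 in the control and 6237 and 649 in GS/DA LRRK2 TG. The GS LRRK2 TG library with more RNA-Seq reads of Npm1 thus lay at the control mean, and the lower mean of the group came from library A.

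Dnajc2, a ribosome-bound cochaperone that also acts on chromatin, had 0.85 and -0.74. Its RNA-Seq values were 193 and 468 in GS LRRK2 TG (control mean 566), 301 and 855 in the control and 1441 and 231 in GS/DA LRRK2 TG. Dnajc2 was among the members with both GS LRRK2 TG libraries below the control mean. Krr1, part of the small subunit processome, had 0.65 and -0.74, Nop58, a core protein of box C/D small nucleolar particles, 0.58 and -0.67, and the nucleolar helicase Ddx50 0.54 and -0.58. Zc3h15, a partner of a translation-associated GTPase, had 0.64 and -0.84. Footprinting changes of Krr1, Nop58, Ddx50 and Zc3h15 ran from -0.30 to 0.03 over both comparisons.

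Splicing factors and SR proteins gave 22 members of 93 measured (23.7%), and the whole list had median TE differences of 0.22 and -0.13. Prpf38b, a splicing factor, had the most negative RNA-Seq change of the members in GS LRRK2 TG, -1.23, and TE differences of 1.09 and -0.70. Prpf38b RNA-Seq was 92.4 and 173 in GS LRRK2 TG against a control mean of 310, 271 and 380 in the control and 718 and 184 in GS/DA LRRK2 TG. Both GS LRRK2 TG libraries lay below the control mean at this transcript. Its footprints ran the same way between libraries in GS LRRK2 TG, 270 and 489 against a control mean of 418, and were 616 and 492 in the control and 542 and 404 in GS/DA LRRK2 TG.

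Rsrc2, a protein with an arginine- and serine-rich region, had TE differences of 0.81 and -0.77, and Htatsf1, which joins transcript elongation to splicing, 0.82 and -0.74. Rsrc2 RNA-Seq was 64.4 and 484 in GS LRRK2 TG (control mean 438), 204 and 652 in the control and 1301 and 130 in GS/DA LRRK2 TG. Htatsf1 RNA-Seq was 164 and 561 (control mean 645), 423 and 877, and 1615 and 328 in the same order. In GS LRRK2 TG, library B of Rsrc2 lay above the control mean and library B of Htatsf1 below it. Clk4, a kinase that phosphorylates SR proteins, was a member with a sizeable footprinting change in GS/DA LRRK2 TG, -0.50, besides an RNA-Seq change of 0.18. Its footprints were 371 and 393 in the control and 252 and 289 in GS/DA LRRK2 TG, so the groups did not overlap. In GS LRRK2 TG, Clk4 footprints changed by -0.10. Prpf4b, a spliceosome kinase, had TE differences of 0.58 and -0.60, and Fam133b 0.74 and -0.59.

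Translation factors and regulators bound to mRNA gave 12 members of 87 measured (13.8%), with median TE differences of 0.12 and -0.10 over the list. Eif2s2, the subunit of the initiation factor that helps load the initiator tRNA, had TE differences of 0.67 and -0.63, and Eif3j, which binds near the decoding site of the small subunit, 0.82 and -0.59. Eif2s2 RNA-Seq was 181 and 674 in GS LRRK2 TG (control mean 611), 352 and 840 in the control and 1607 and 294 in GS/DA LRRK2 TG. Its footprints were 1573 and 1079 (control mean 1189), 1283 and 1804, and 1246 and 1926 in the same order. The footprints of Eif2s2 differed between libraries within each group, and those of GS/DA LRRK2 TG spanned the control.

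Fmr1, the gene for FMRP, which represses translation at synapses, had TE differences of 0.61 and -0.69 with footprinting changes of 0.00 and -0.00. Its RNA-Seq was 49.0 and 411 in GS LRRK2 TG (control mean 349), 172 and 523 in the control and 1018 and 104 in GS/DA LRRK2 TG. The paralog Fxr1 had 0.52 and -0.80, again with footprinting changes near 0, -0.04 and 0.03. For both genes of this family the footprints did not move, and the RNA-Seq libraries of a group were several-fold apart. Tnrc6a, a scaffold of miRNA silencing, had 0.80 and -0.59. Tnrc6a footprints contributed changes of 0.26 and -0.25, in the direction of its TE differences. They were 347 and 508 in GS LRRK2 TG against a control mean of 357, so the rise there came from library B. In GS/DA LRRK2 TG they were 405 and 408, both below the control libraries (496 and 472).

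Chromatin and cohesin proteins gave 20 members of 111 measured, with list medians of 0.28 and -0.18. Dek, a DNA-binding architectural protein, had TE differences of 0.60 and -0.72, and its RNA-Seq was 42.0 and 352 in GS LRRK2 TG (control mean 285), 107 and 485 in the control and 805 and 82.0 in GS/DA LRRK2 TG. Smarca1, a nucleosome-sliding ATPase, had 0.57 and -0.76, Epc2, of a histone acetyltransferase complex, 0.66 and -0.63, and Psip1, which reads methylated histone tails, 0.54 and -0.55. The corepressor subunit Mier1 had 0.51 and -0.71, and the histone methyltransferase Nsd1 0.50 and -0.48. Footprinting changes of these transcripts ran from -0.15 to 0.13.

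Zinc finger genes of the Zfp series, most of them DNA-binding repressors, gave 16 members of 155 measured (10.3%), with list medians of 0.13 and -0.13. Zfp667 had TE differences of 0.90 and -0.71, with footprinting changes of 0.23 and -0.31. Its footprints were 251 and 238 in GS LRRK2 TG (control mean 208), 256 and 324 in the control and 207 and 259 in GS/DA LRRK2 TG. Both footprinting libraries of GS LRRK2 TG lay above the control mean at Zfp667, while those of GS/DA LRRK2 TG overlapped the control. Zfp667 RNA-Seq was 29.4 and 213 in GS LRRK2 TG (control mean 192), 92.5 and 340 in the control and 513 and 54.1 in GS/DA LRRK2 TG. Zfp189 had 1.13 and -0.65, Zfp260 0.58 and -0.82, Zfp804a 0.59 and -0.53, and Zfp317 0.49 and -0.65. Zfp617, at 0.59 and -0.49, differed from these in GS LRRK2 TG, where its footprints carried most of the difference with a change of 0.41.

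Centrosome, cilium and microtubule-anchoring proteins gave 10 members of 60 measured (16.7%), with list medians of 0.21 and -0.16. Nin, ninein, which anchors microtubules at the centrosome, had TE differences of 0.65 and -0.62, and Cep57, which binds microtubules at centrosomes, 0.65 and -0.64. Nin RNA-Seq was 232 and 826 in GS LRRK2 TG (control mean 935), 562 and 1430 in the control and 2372 and 404 in GS/DA LRRK2 TG. Lztfl1, a regulator of ciliary cargo, had 0.51 and -0.62, Golga4, a golgin, 0.52 and -0.51, Mtap9, a microtubule-binding protein, 0.51 and -0.53, and the centrosomal Cep170 0.49 and -0.47. Of these, Nin had the largest footprinting changes, -0.17 and -0.14, which had the same sign in both comparisons.

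Chaperones gave 8 members of 56 measured (14.3%), with list medians of 0.12 and -0.04, and ubiquitin ligases and deubiquitinases 14 of 67 (20.9%), with 0.32 and -0.23. Hsp90b1, a chaperone of the endoplasmic reticulum, had TE differences of 0.43 and -0.60, from RNA-Seq values of 724 and 3093 in GS LRRK2 TG (control mean 2475), 1268 and 3693 in the control and 6734 and 1022 in GS/DA LRRK2 TG. Sec62, of the translocation channel, had 0.58 and -0.62, Hspa13 0.52 and -0.50, Dnajb4 0.51 and -0.45, and the prefoldin subunit Vbp1 0.56 and -0.41. Mysm1, a histone deubiquitinase, had 0.56 and -0.67, and its RNA-Seq libraries were the farthest apart of those given here, with 9.80 and 251 in GS LRRK2 TG (control mean 164), 29.8 and 324 in the control and 504 and 21.6 in GS/DA LRRK2 TG. Mysm1 footprints were 254 and 192 (control mean 192), 233 and 261, and 210 and 249 in that order, and overlapped. Of the ligases, Rnf6 had 0.55 and -0.66, Birc2, an inhibitor of apoptosis, 0.63 and -0.50, and Rnf20, which ubiquitinates a histone, 0.56 and -0.49. The deubiquitinases Usp47 and Usp29 had 0.63 and 0.50 in GS LRRK2 TG and -0.49 and -0.53 in GS/DA LRRK2 TG.

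The lists above held 113 members once genes in several lists and the Y-linked list below were counted. Of 8 immediate early genes, 0 was a member, where 2.76% of all transcripts were. Leading members outside these lists were Gpbp1, a transcription factor that binds GC-rich promoters, Ccdc25, a coiled-coil protein, and C130022K22Rik. Gpbp1 had TE differences of 0.78 and -0.92, with RNA-Seq values of 106 and 718 in GS LRRK2 TG (control mean 620), 247 and 886 in the control and 1873 and 192 in GS/DA LRRK2 TG. Ccdc25 had 0.76 and -0.82, with 28.0 and 256 (control mean 219), 75.5 and 353, and 670 and 65.8 in the same order. C130022K22Rik had 0.80 and -0.97, with 72.8 and 222 (control mean 239), 134 and 291, and 652 and 145. All 10 leading members had their control RNA-Seq libraries between those of GS/DA LRRK2 TG, apart from C130022K22Rik, whose control library A lay just below both.

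**Figure D2:**
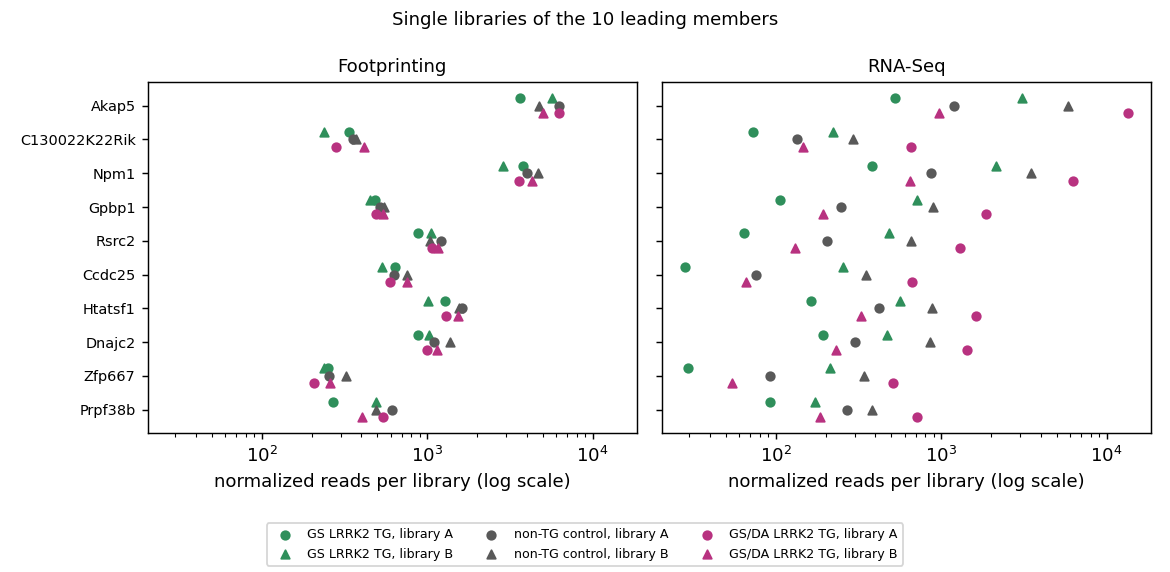
Normalized reads of the 10 leading members in each recovered library, footprinting on the left and RNA-Seq on the right, on a shared log axis, with circles for library A and triangles for library B. With 10 added to each value, RNA-Seq libraries of GS/DA LRRK2 TG are 3.75-fold (Prpf38b) to 13.81-fold (Akap5) apart, and footprinting libraries at most 1.79-fold in any group (Prpf38b in GS LRRK2 TG, where its RNA-Seq libraries are 1.78-fold apart).

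Some members had a footprinting part, taken as the footprinting change in GS LRRK2 TG minus that in GS/DA LRRK2 TG. It was largest for Kdm5d (0.78), 5730455O13Rik (0.70), the ubiquitin ligase adaptor Wsb1 (0.60), Gm5803 (0.56) and Cetn3 (0.56). Cetn3 encodes a centrin, a calcium-binding protein of centrioles, with footprints of 1270 and 597 in GS LRRK2 TG (control mean 699), 825 and 1141 in the control and 699 and 1090 in GS/DA LRRK2 TG. The rise of Cetn3 footprints in GS LRRK2 TG thus came from library A, and library B lay below the control mean. 5730455O13Rik had footprints of 330 and 222 (control mean 204), 243 and 336, and 198 and 283 in the same order. At the other end, footprints rose in both comparisons for Matn2, a matrix protein, with changes of 0.22 and 0.37, and for Luzp2, with 0.09 and 0.34, and so went against the TE difference in GS/DA LRRK2 TG. These rises came from single libraries. In GS LRRK2 TG, library B lay below the control mean for Matn2 (127 against 160) and Luzp2 (627 against 652). In GS/DA LRRK2 TG, library A lay between the control libraries for Matn2 (209 against 160 and 219) and Luzp2 (757 against 748 and 780). Parg, which removes poly(ADP-ribose), had footprinting changes of -0.14 and 0.12, Crybg3 -0.13 and 0.12, and Elac1, a tRNA-processing enzyme, -0.05 and 0.09.

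RNA-Seq libraries less than 2-fold apart in all 3 pairs, with 10 added to each value, were found for 6 members (2.59% of those resolved, against 39.3% of all transcripts), singled out after their values were seen. They were Ccpg1, Elac1, Wsb1, Mll5, Brdt and Matn2, the last of which was under 2-fold in GS/DA LRRK2 TG only through that addition. Wsb1 RNA-Seq was 105 and 94.5 in GS LRRK2 TG (control mean 153), 202 and 125 in the control and 178 and 159 in GS/DA LRRK2 TG, so the libraries of GS LRRK2 TG were alike and below the control mean. Its footprints were 186 and 169 (control mean 155), 210 and 215, and 131 and 190, so both GS LRRK2 TG libraries lay above and both GS/DA LRRK2 TG libraries below the control. Elac1 RNA-Seq was 84.0 and 131 (control mean 152), 167 and 110, and 217 and 200, and Matn2 RNA-Seq was 82.6 and 153 (control mean 141), 121 and 137, and 290 and 144. Elac1 and Matn2 were the 2 members whose GS/DA LRRK2 TG libraries both lay above both control libraries. Brdt, a testis bromodomain protein, had 197 and 213 (control mean 231), 202 and 247, and 313 and 246.

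At the thresholds, Akap9 (0.402), Zfp770 (0.403) and Trip4 (0.408) had the smallest TE differences inside the GS LRRK2 TG criterion. Eml4, Rpf2 (0.399) and Hook1 (0.394) fell just outside it, Eml4 by less than the last decimal given. For GS/DA LRRK2 TG, 1200011I18Rik (-0.351) and Trim37 (-0.352) lay just inside and Aggf1 (-0.348) and Kif5c (-0.346) just outside. Kif5c, a kinesin of neurons, had an RNA-Seq change of -0.50 in GS LRRK2 TG and 0.40 in GS/DA LRRK2 TG, like those of the members.

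The members shared a low GC content of their coding sequence, a property that the rule did not use. Its median was 44.3% (quartiles 42.8% and 46.7%) over the 234 members with an annotated coding sequence, against 52.8% over all transcripts. At the third codon position the medians were 42.9% and 60.3%. Of the 234 members, 201 lay in the lowest quartile of all transcripts, which ends at 48.3%, and 3 lay above the median. In the lowest decile of GC content, 35.9% to 44.7%, 126 of 844 transcripts (14.9%) were members, in the next 60 (7.11%), and in the deciles from 54.4% to 60.2% 0. The lowest decile as a whole had median TE differences of 0.24 in GS LRRK2 TG and -0.25 in GS/DA LRRK2 TG. The transcripts that met the GS LRRK2 TG criterion alone had a median GC content of 47.4%, and those that met the other alone 44.6%. These values carry no test, because the RNA-Seq libraries that set the members also differ by GC content. In the quartile of transcripts with the highest GC content, the median log2 of library B over A was -1.50 in GS LRRK2 TG, -1.34 in the control and 1.51 in GS/DA LRRK2 TG, the reverse of the members, which had 2.25, 1.66 and -2.70.

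**Figure D3:**
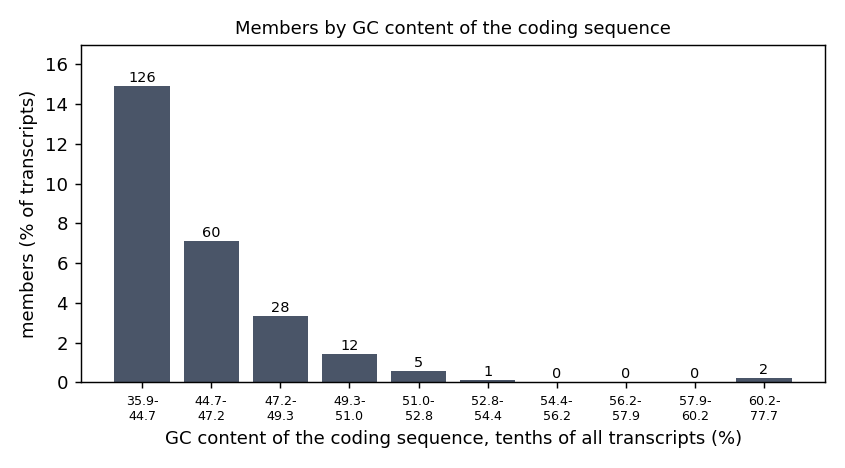
Share of transcripts that are members in each decile of the GC content of the coding sequence, with the number of members above each bar. The share falls from 14.9% in the lowest decile to 0% in the deciles from 54.4% to 60.2%, and the highest holds 2 members.

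The first 30 bases of the coding sequence are shown for the members with the lowest GC content, to let the base composition be seen, with every G and C in capitals. Positions are those of NCBIM37. Dsel (38.3% over the coding sequence) encodes an epimerase-like protein, Ssb (39.1%) the La protein, which binds the ends of new RNA polymerase III transcripts, and Phospho2 (39.1%) a phosphatase. The stretches lie at chr1:113759351-113759380 on the minus strand, chr2:69701307-69701336 on the plus strand and chr2:69633559-69633588 on the plus strand, and hold 9, 9 and 11 G or C.
Dsel: atGGCGtttatGtttaCaGaaCatttaCta
Ssb: atGGCtGaaaatGGaGataatGaaaaaatG
Phospho2: atGaaaGttCtGttGGtGtttGaCtttGaC

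The members with the highest GC content are shown beside them as the exceptions. Scrt1 (66.8%) encodes a neuronal zinc finger repressor, Srsf12 (60.2%) an SR protein and Arglu1 (54.4%) an arginine- and glutamate-rich splicing factor. Their stretches lie at chr15:76352106-76352135 on the minus strand, chr4:33296057-33296086 on the plus strand and chr8:8690288-8690317 on the minus strand, and hold 16, 14 and 23 G or C.
Scrt1: atGCCCaGGtCCttCCtGGttaaGaaGGtC
Srsf12: atGaGatCtttttCtGGGGCtGtttGGGaG
Arglu1: atGGGCCGGtCGCGGaGCCGGaGCtCGtCC

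The GC-poor Ssb had RNA-Seq values of 99.4 and 1272 in GS LRRK2 TG (control mean 852), 240 and 1381 in the control and 2676 and 184 in GS/DA LRRK2 TG, and TE differences of 0.47 and -0.92. Dsel had 29.4 and 259 (control mean 186), 59.5 and 370, and 509 and 39.6, and TE differences of 0.49 and -0.39. Srsf12 had its libraries apart in the same order in spite of its high GC content, with 63.0 and 249 (control mean 274), 123 and 451, and 740 and 90.1, and TE differences of 0.85 and -0.47. The RNA-Seq libraries of Scrt1 were not resolved.

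Coding sequences of members were long, with a median of 2121 bases against 1476 over all transcripts, and so were those of transcripts that met the GS/DA LRRK2 TG criterion alone, with 2133. Transcripts that met the GS LRRK2 TG criterion alone had a median of 1491 bases, near that of all transcripts. The predicted folding energy of the members' 5′UTR, as the authors deposited it, had a median of -121 kcal/mol (quartiles -216 and -63.9) against -91.2 over all transcripts and -115 over those that met the GS/DA LRRK2 TG criterion alone, a more negative value meaning a more stable structure. It was -102 over those that met the GS LRRK2 TG criterion alone. Leading members lay on both sides of these medians, with Gpbp1 at -375.48 and Npm1 at -23.7 kcal/mol. In the controls set against GS/DA LRRK2 TG, members had a median of 501 normalized RNA-Seq reads against 745, and of 782 footprints against 715. Their control TE there had a median of 0.48 against 0.04, and transcripts that met the GS/DA LRRK2 TG criterion alone had 0.70, but this control TE is a term of the rule, which favors high values of it. In WT of the LRRK2 KO table, which the rule did not use, the median TE was -0.51 for members and -0.63 for all transcripts. The 234 members with a gene position were spread over 20 chromosomes, with shares from 0.499% of the transcripts on chromosome 17 to 5.78% on chromosome 13.

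Markers of cell types were examined for the members. Of 14 markers of striatal spiny neurons 13 were listed, with Ppp1r1b the most abundant in the footprints of GS LRRK2 TG. None was a member, where 2.76% of all transcripts were, so the count of a list of this size says little. Their median RNA-Seq changes were -0.14 in GS LRRK2 TG and -0.12 in GS/DA LRRK2 TG. Ermn, a cytoskeletal protein of myelinating oligodendrocytes, was 1 of 10 measured oligodendrocyte markers and a member, with TE differences of 0.52 and -0.59. Ermn RNA-Seq was 49.0 and 658 in GS LRRK2 TG (control mean 461), 188 and 824 in the control and 1316 and 97.3 in GS/DA LRRK2 TG. The sum of the 10 oligodendrocyte markers ran the other way, with 50808 and 18908 RNA-Seq reads in GS LRRK2 TG A and B, 44775 and 17663 in the control and 18175 and 47558 in GS/DA LRRK2 TG. Mbp was the most abundant of them in these libraries and none was at 0. The other markers did not move as 1 block. Aspa, an enzyme of oligodendrocytes and not a member, ran like Ermn, with RNA-Seq values of 244 and 646, 298 and 573, and 588 and 268 in these groups, and Opalin was higher in B in GS LRRK2 TG (748 and 906) and in the control (587 and 921). These markers were singled out after their values were seen.

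Markers of astrocytes (9 measured), microglia (6), cortical excitatory neurons (5), choroid plexus (3) and blood (3) gave 0 members. Members were 2.76% of all transcripts, so counts from lists of this size say little about a cell type. None of the endothelial markers was listed. Cortical excitatory neuron markers had median changes of -0.21 in footprinting and -0.38 in RNA-Seq in GS LRRK2 TG and of 1.05 and 1.03 in GS/DA LRRK2 TG, so the RNA-Seq medians had the signs of the members. Their summed RNA-Seq was 11709 and 2628 in GS LRRK2 TG A and B, 15374 and 2412 in the control and 3875 and 18229 in GS/DA LRRK2 TG, with Nrgn most abundant in all but the last group's library A, where Slc17a7 was, and none at 0. These sums moved against the members between libraries, as did Nrgn and Cux2. Of the remaining markers, singled out after their values were seen, Neurod6 and Tbr1 moved with the members. Neurod6, a transcription factor, had 19.6 and 204, 63.8 and 176, and 371 and 118 in the same groups, and Tbr1, another, 39.2 and 296, 161 and 192, and 494 and 321. Slc17a7, a glutamate transporter, did so in GS LRRK2 TG alone (674 and 910). Among the other types, also singled out after their values were seen, RNA-Seq of the astrocyte markers Slc1a2 (846 and 4360, 1212 and 4491, 6260 and 1262) and Aqp4 (57.4 and 252, 123 and 336, 478 and 95.5) moved with the members. So did the spiny neuron marker Pde10a (8376 and 16899, 13542 and 22956, 20306 and 10890). The other astrocyte markers ran the opposite way, such as Aldoc (16180 and 6487, 15039 and 6415, 5770 and 15843). Summed astrocyte markers did so too, with 22863 and 14616, 22610 and 15307, and 16722 and 24229. Sums of the resolved spiny neuron markers also ran the opposite way, with 84780 and 52250, 70572 and 56844, and 57513 and 87449. The part of cell composition in the members' values was not tested.

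Kdm5d, a histone demethylase encoded on the Y chromosome, was the only member among 3 measured Y-linked genes, with TE differences of 1.00 and -0.42. The others met the GS LRRK2 TG criterion too, Ddx3y with 1.11 and Uty with 1.77, and had -0.11 and -0.17 in GS/DA LRRK2 TG. Kdm5d footprints were 60.6 and 205 in GS LRRK2 TG (control mean 112), 154 and 167 in the control and 81.0 and 141 in GS/DA LRRK2 TG, and its RNA-Seq was 88.2 and 117 (control mean 174), 93.5 and 332, and 350 and 43.3. The summed footprints of the Y-linked genes were 533 and 1713 in GS LRRK2 TG, 1238 and 1392 in the control and 662 and 1156 in GS/DA LRRK2 TG, with Ddx3y most abundant and none at 0. The pools held males and females in unequal numbers, so the value of Kdm5d cannot be told apart from the sex ratio of the pools.

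LRRK2 KO libraries were not used by the rule, and the same transcripts were looked up in them. All 237 members were listed in that table. Their median TE difference was 0.03, from a median footprinting change of 0.06 and a median RNA-Seq change of 0.05, and all transcripts of the table had a median of 0.02. A TE difference of at least 0.4 was found for 13 members (5.49%), where 7.39% of all transcripts had one, and a difference of at most -0.35 for another 13 (5.49%), where 7.82% had one. Members were above 0 in 56.1% of cases against 53.0% of all transcripts. The shares of members in LRRK2 KO were near those of all transcripts, in either direction.

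A limma model with the interaction of genotype and assay, adjusted by the Benjamini-Hochberg method, called 0 of 9526 transcripts (0%) and 4 (0.0420%) at an unadjusted p under 0.05, of which 0 were among the 235 members fitted. The members' median fitted TE difference was 0.06 with a median standard error of 0.51, near the size of their median TE differences in the transgenic tables. With a block made of the WT and LRRK2 KO libraries that resemble each other, a matching read from the values since no label names a batch, limma called 0 after Benjamini-Hochberg adjustment and 186 (1.95%) at an unadjusted p under 0.05, 3 of them members (1.28%), with a median standard error of 0.27 over the members. The members' median fitted difference depended on single libraries. It was -0.22 without WT footprinting library B, -0.04 without LRRK2 KO footprinting A, -0.09 without WT RNA-Seq B and -0.17 without LRRK2 KO RNA-Seq A, and lay between 0.18 and 0.33 without each of the other 4.

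Libraries of LRRK2 KO and WT overlapped for most members. Both LRRK2 KO footprinting libraries lay above both WT libraries for 11 of 235 members (6.22% of all transcripts) and below them for 1 (6.41%). For RNA-Seq, 10 members lay above (7.04%) and 10 below (7.03%). The RNA-Seq libraries of this table were less far apart at the members than those of the transgenic tables, with median log2 ratios of B over A of 0.37 in WT and 0.50 in LRRK2 KO. The footprinting libraries were farther apart than there, with -0.58 in WT and -0.25 in LRRK2 KO. Between WT and LRRK2 KO footprinting libraries B, which resemble each other, 213 of 235 members were above 0 (58.9% of all transcripts) with a median change of 0.25, and between libraries A 91 were (46.0%), with -0.06.

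Akap5 footprints were 1893 and 1315 in WT libraries A and B and 2030 and 1635 in LRRK2 KO, and its RNA-Seq was 1773 and 2320 in WT and 1512 and 3007 in LRRK2 KO. The groups overlapped in both assays, and the fitted TE difference of Akap5 was 0.13 ± 0.54 (SE, limma over 8 libraries). Npm1 had 0.21 ± 0.50, and Gpbp1, the leading member with the most negative TE difference in LRRK2 KO, -0.51 ± 0.47. Among members with all 4 means of at least 500, Hsp90b1 was highest with a TE difference of 0.38 and Fkbp3, a nuclear immunophilin, followed at 0.32 after a transcript whose symbol had been altered to a date. Hsp90b1 footprints were 593 and 1397 in WT and 578 and 1617 in LRRK2 KO, and its RNA-Seq was 1785 and 898 in WT and 1390 and 877 in LRRK2 KO, so the libraries within a genotype differed by more than the genotypes. Akap9 was lowest at -0.27, followed by the ubiquitin ligase Trim37 at -0.15 and the neuronal zinc finger factor Myt1l at -0.10. Each of these differences was smaller than its fitted standard error, 0.89 for Hsp90b1, 0.44 for Fkbp3, 0.95 for Akap9, 0.65 for Trim37 and 0.33 for Myt1l.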

How the data were processed

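The series holds 26 samples of ribosome footprints or total RNA, most from mouse caudate putamen. The authors aligned reads to mm9 with TopHat2 2.0.11 and Bowtie2 2.2.2, counted them in coding sequences, discarded transcripts under 128 reads and normalized with DESeq 1.20. The deposited group means are a signal without a spread, and each table was normalized separately. The 5′UTR folding energies that the authors deposited, in kcal/mol, were used as given. The authors' own TE, TE difference and *z* score columns were not used.

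TE and its footprinting and RNA-Seq parts were recomputed from the means without a pseudocount or a further filter, so all 237 members passed. Reads of single libraries were recovered where only 1 pair of whole read numbers, each times a step of its library, gave the mean, in 10 of 12 columns, with 98.3% to 99.9% of transcripts resolved, and the method was tested on simulated data. The GS LRRK2 TG table's control columns were not recovered. Recovered libraries were not linked to the replicate numbers of the labels, except where footprinting read numbers set a limit. Footprinting libraries B of GS/DA LRRK2 TG and LRRK2 KO hold more reads than the paper lists as mapped for replicate 1 of these groups, so they are not that replicate. Footprinting library B of the control set against GS/DA LRRK2 TG holds 14721920 reads. The paper lists more mapped reads than this only for the last of the 3 control replicates, so it is that replicate. The read numbers of the RNA-Seq libraries set no such limit. Control and genotype libraries were matched by the library difference both share, a link no label gives. Ratios between single libraries had 10 added to each value, and a single library in place of a group mean had none. LRRK2 KO libraries were fitted with limma 3.58.1 in R 4.3.3 on log2 of the value plus 10, with p-values adjusted by the Benjamini-Hochberg method. These p-values measure spread between these samples. Coding sequences came from GENCODE on NCBIM37 and Python 3.11.15 was used throughout. Protein composition was not analysed here.

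The members and lists were chosen with earlier results of these data known. Named genes are the 10 members with the largest smaller TE difference, those nearest the thresholds, the 5 largest and smallest footprinting parts, the leading members of each list, cell type markers and Y-linked genes among the members, the LRRK2 KO extremes with means of at least 500, and the extremes of GC content. Alternatives were stricter read minimums, a pseudocount, other thresholds, centred TE differences, 1 transcript per symbol and leaving out each library. The matched single libraries of GS/DA LRRK2 TG and its control, and medians without each library, were chosen after seeing the data.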

Additional observations from a re-analysis of the deposited data

How the results depend on the processing

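The number of members was 139 and 76 with all group means at least 2 and 4 times the authors' read minimum, 497 and 107 with thresholds 0.1 looser and stricter, and 28 to 525 with a library left out. It stayed within 1.5 times 237 with a pseudocount of 10 (222), centred TE differences (176) and 1 transcript per symbol (237). With RNA-Seq libraries A of non-TG control and B of GS/DA LRRK2 TG alone, an alternative chosen after seeing the data, it was 2, and with libraries B and A alone 398. The fewer members under stricter minimums and thresholds follow from the alternatives' construction.

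The median RNA-Seq change of members in GS LRRK2 TG was -0.40 with looser and -0.54 with stricter thresholds and -0.51 with centred differences. It reversed to 0.23 without GS LRRK2 TG RNA-Seq library A, within a range of -2.11 to 0.23 over libraries left out. In GS/DA LRRK2 TG the median was 0.35, 0.52 and 0.48 under the same settings and 0.64 with the matched libraries B and A alone. It reversed to -0.39 with the matched libraries A and B alone, to -0.14 without non-TG control RNA-Seq library A and to -1.50 without GS/DA LRRK2 TG RNA-Seq library A, within a range of -1.50 to 1.52. The median footprinting change ran from 0.03 to 0.11 in GS LRRK2 TG and from -0.18 to 0.02 in GS/DA LRRK2 TG, where it reversed to 0.02 without GS/DA LRRK2 TG footprinting library A. The cause was not tested.

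The median coding GC content and folding energy of members kept their direction under all 6 alternatives run for each. The median LRRK2 KO TE difference of members ran from 0.01 to 0.06 under its 6 alternatives. All transcripts had a median of 0.02 in the main setting, so no direction is read from it. The fitted LRRK2 KO median of members was below 0 in 4 of the 8 fits without a library, from -0.22 to -0.04. The limma count for LRRK2 KO was 0 after Benjamini-Hochberg adjustment under all 13 alternatives, from 0 to 186 at an unadjusted p under 0.05. Where a library was left out, the lone library of its group was assumed to vary like the others.

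No paired analysis was possible because the recovered libraries could not be linked to the replicate numbers of the labels in both assays. Read numbers limited the link for some footprinting libraries and for no RNA-Seq library. The paper split each lysate between the assays, and the main limma fit of LRRK2 KO leaves this pairing out. The block in a limma fit of LRRK2 KO pairs libraries by their values instead. The GS LRRK2 TG comparison has no control libraries to give a spread. With 2 libraries per group, the depth of single libraries, such as 9.80 normalized RNA-Seq reads of Mysm1 in GS LRRK2 TG library A, limits their values.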
